A study of Arabidopsis thaliana with 40 samples.

Results

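The genes described here encode the proteasome, the barrel-shaped protease that destroys proteins marked with ubiquitin chains. They were 35 loci, of 32678 *Arabidopsis thaliana* loci in the expression table. These encode subunits of the proteasome's core (12 α and 11 β genes), ATPases of its cap (10 RPT genes) and a pair of non-ATPase cap subunits (RPN1A and RPN10). An α3 gene (AT4G15165), an RPT1 gene (AT1G53780) and other RPN genes lay outside the 35 and are given separately. The 35 were chosen by locus from a list of subunits, with no measured value in the rule but with earlier results of these data known. RefSeq gives a symbol for 31 of them, and the other 4 are called by locus: AT1G79210, AT3G26340, AT1G45000 and AT5G20000. The samples are labelled as single cells of the root's quiescent center (QC), the slowly dividing cells around which the stem cells of the root tip are arranged. All 40 samples came from a single group: cells of the reporter line WOX5:GFP in the Col-0 background, at 5 days after stratification, sorted by green fluorescence from digested roots and amplified by CEL-Seq, a method that tags RNA at its 3′ end. The WOX5 promoter drives the reporter in the QC, and no mutant, treatment or other tissue entered the comparison. The table gave profiles for 39 samples, and QC cell 14 was not analysed here.

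The core of the proteasome is a stack of rings, with α subunits outside and β subunits inside. The α ring gates the entry of substrates, and β1, β2 and β5 carry the catalytic threonines. The cap binds the ubiquitin chain, and its ring of RPT ATPases unfolds the substrate and threads it into the core. In plants this machine removes regulators of auxin, gibberellin and jasmonate responses and of the cell cycle. In *Arabidopsis* many subunits have a pair of genes, and a mutant of RPT2a, known as halted root, loses the organization of its root meristem.

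The 39 profiles were not separate measurements. Ordered by depth, from 57655 to 7431708 counts at *Arabidopsis* loci, no value in any of the 38 steps was lower than in the shallower profile, so each deeper profile held all counts of the shallower ones. They were therefore counted as 1 sample, levels are given from the deepest profile (QC cell 22) as CPM (counts per 1000000 counts at *Arabidopsis* loci), and no test between cells was made. Intervals are 95% intervals and cover counting error only. For a view of the spread, the counts of the shallowest profile and those added at each of the 38 steps were taken as 39 blocks, of 12920 to 1228427 counts, which share no count and are not replicates. Of 5 QC markers, SCR was at 28.5 CPM, WOX5 at 10.6 CPM and AGL42 at 2.96 CPM, and PLT1 and PLT2 were listed at 0. Of 9 markers of other root cell types 6 were above 0, up to 33.5 CPM for WOL of the stele, and SHV2 (COBL9), CASP1 and SMB were listed at 0. In the same profile 51.3% of all loci were above 0. The QC list summed to 42.1 CPM and the other list to 71.9 CPM, and the part of other cells in the levels given here was not tested.

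The promoters of the proteasome genes are shown first, because the core of the proteasome-related cis-element (TGGGC), which the factors NAC053 and NAC078 bind, recurred in them. Windows ran from 250 bases before to 50 bases after the annotated gene start, in RefSeq TAIR10.1, and all 35 genes had one. TGGGC, searched on both strands, stood in 21 of the 35 windows (60.0%), against 26.0% of 27443 windows of protein-coding genes and 31.4% of the 8869 windows of genes at 10 CPM or more. At least 2 matches stood in 17 of the 35 windows, against 14.5% of all windows. By class, 6 of 12 α, 9 of 11 β, 5 of 10 RPT and 1 of 2 RPN genes held it. TGGGCC and TGGGCT, the forms of the site II element, contain TGGGC and were counted in it. TGGGCC stood in 15 windows (42.9%), against 15.5% of all and 20.5% of those of genes at 10 CPM or more. TGGGCT stood in 16 (45.7%), against 14.2% and 17.8% in the same order. AAACCCTA, the telo box, stood in 1 of the 35 windows, against 6.22% and 5.07%.

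The 130 bases before the gene start are printed for RPN1A and AT3G26340, which held the most TGGGC matches in their windows (5 and 4). RPT1A and RPT3, the genes of the highest CPM, and PBC2, the highest gene without a match, were added after their values were seen. Capitals mark TGGGC on either strand, and all other bases are in lower case.
RPN1A (AT2G20580, chr2:8858832-8858961, plus strand): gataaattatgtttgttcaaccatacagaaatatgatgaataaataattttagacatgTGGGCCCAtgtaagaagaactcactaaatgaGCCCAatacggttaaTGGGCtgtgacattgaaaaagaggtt
AT3G26340 (chr3:9652937-9653066, minus strand): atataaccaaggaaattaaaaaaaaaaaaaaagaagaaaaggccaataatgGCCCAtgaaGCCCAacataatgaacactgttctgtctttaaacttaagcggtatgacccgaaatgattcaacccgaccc
RPT1A (AT1G53750, chr1:20068501-20068630, minus strand): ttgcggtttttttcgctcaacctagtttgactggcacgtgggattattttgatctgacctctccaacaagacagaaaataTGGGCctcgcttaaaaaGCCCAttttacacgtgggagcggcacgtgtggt
RPT3 (AT5G58290, chr5:23568922-23569051, plus strand): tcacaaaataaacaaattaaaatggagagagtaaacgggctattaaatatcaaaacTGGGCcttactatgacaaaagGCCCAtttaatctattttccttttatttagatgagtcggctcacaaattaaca
PBC2 (AT1G77440, chr1:29095890-29096019, plus strand): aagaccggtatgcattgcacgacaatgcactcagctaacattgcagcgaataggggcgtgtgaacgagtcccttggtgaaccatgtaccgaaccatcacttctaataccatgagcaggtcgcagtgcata

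The stretch of RPN1A holds 4 matches, a pair of which overlap on opposite strands in a single run of capitals. Those of RPT1A and RPT3 hold a match on each strand, 2 in all, and that of PBC2 holds none. A relation of the number of matches to the level was not tested over the 35 genes. RPN1A, with 5 matches in its window, lay at 159.9 CPM. AT3G26340, with 4, lay at 10.2 CPM, the lowest of the 35. The median over the 21 genes with a match was 71.2 CPM and that over the 14 genes without was 74.5 CPM.

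All 35 genes were detected (a value above 0) in the deepest profile, where 51.3% of all loci were. All 35 were also at 10 CPM or more, against 27.8% of all loci, and 10 of them at 100 CPM or more (28.6%, against 5.41%). Their median was 71.2 CPM, and the median of the 16780 detected loci was 12.1 CPM. Together they held 22291 counts, 2999 CPM (interval 2960 to 3039), or 0.300% of all counts. The middle gene lay above 85.3% of the detected loci, and AT3G26340 was the single gene of the 35 below their median. Outside the 35, AT4G15165 (an α3 gene) was listed at 0 and AT1G53780 (an RPT1 gene) was at 9.82 CPM. Over the 39 blocks the sum of the 35 genes ran from 2234 to 3527 CPM with a median of 3015 CPM. Its coefficient of variation was 0.0835, and counting alone would give 0.0779 for blocks of these sizes.

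**Figure D1:**
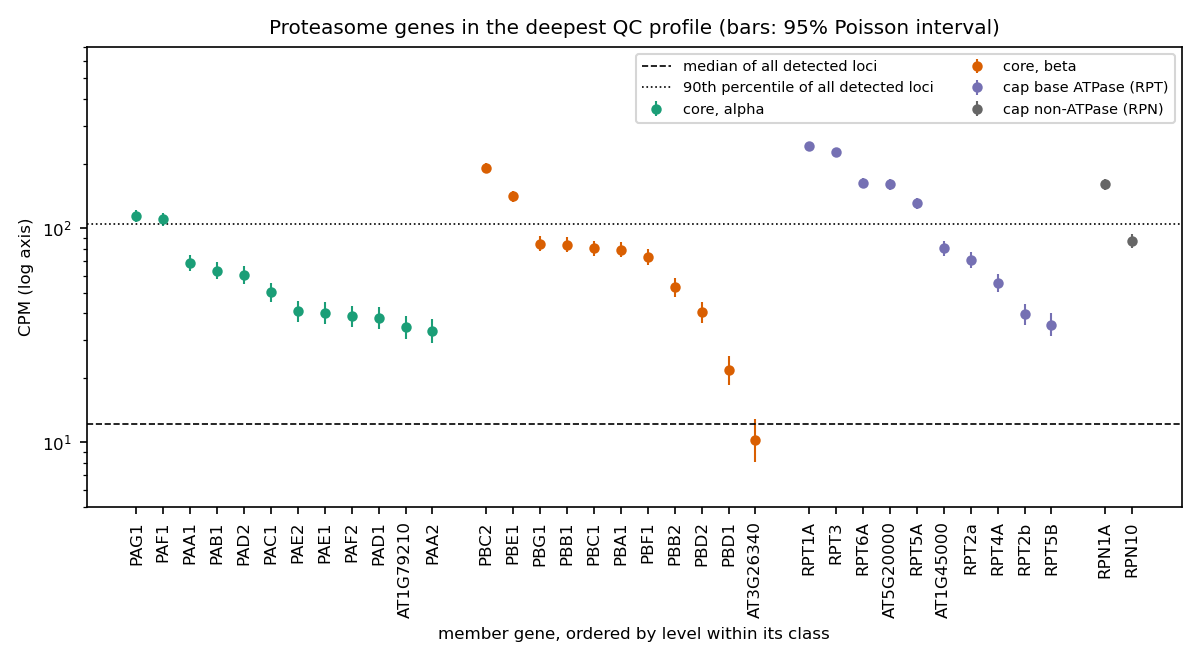
CPM of each of the 35 proteasome genes in the deepest profile on a log axis, grouped by class, with bars for the Poisson interval; the dashed and dotted lines are the median (12.1 CPM) and the 90th percentile (104.3 CPM) of all detected loci. Each class spans a range of levels, and AT3G26340 at 10.2 CPM is the only point below the dashed line.

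A value above 0 in every profile, which for nested profiles means a value in the shallowest, was found for 26 of the 35 genes (74.3%), against 15.3% of all loci. All 10 RPT genes, 8 of 12 α genes and 8 of 11 β genes were among them, and neither RPN gene was. The other 9 genes were listed at 0 in only 1 or 2 profiles of the shallowest. AT3G26340, PBD1 and PAD2 had a value in 37 profiles, and PAA1, PAA2, AT1G79210, PBD2, RPN10 and RPN1A in 38. RPN1A and PAD2 each appeared with 13 counts at once, while PBD1 appeared with 2. A 0 in this table sets no upper limit on a level, because genes with little covered sequence may have been removed from a profile. Thinned to 10000 counts, profiles held between 12 and 23 of the 35 genes, with a median of 18.

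The classes differed in level, and the order of β and RPT genes turned with the scale. The median CPM was 45.5 for α, 79.4 for β and 105.4 for RPT genes. Per kilobase of coding length, the medians were 62.0 for α, 108.9 for β and 84.6 for RPT genes, whose coding sequences are longer (median 1266 bases, against 747 for α and 705 for β). On both scales the median of the α genes was the lowest of these, but once paralogs were summed the median α subunit lay above the median β subunit, at 98.5 against 84.5 CPM and at 130.8 against 114.0 CPM per kilobase. CEL-Seq reads the 3′ end, and over 16107 detected loci the rank correlation of CPM with coding length was -0.0345 and over the 35 proteasome genes 0.356, a description across genes that are not independent. The RPT genes summed to 1202 CPM (interval 1178 to 1228), or 40.1% of the counts of the 35 genes, the β genes to 858.5 CPM (837.5 to 879.8) and the α genes to 691.8 CPM (673.0 to 710.9). RPN1A and RPN10 gave 246.9 CPM.

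Over the 39 blocks the summed level of the α genes ran from 308.1 to 1084 CPM with a median of 683.9. The β sum ran from 585.1 to 1176 CPM (median 841.1) and the RPT sum from 770.4 to 1547 CPM (median 1196). The ranges of the classes overlap. The coefficients of variation were 0.190 for α, 0.127 for β and 0.130 for RPT genes, beside 0.162, 0.146 and 0.123 from counting alone.

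**Figure D2:**
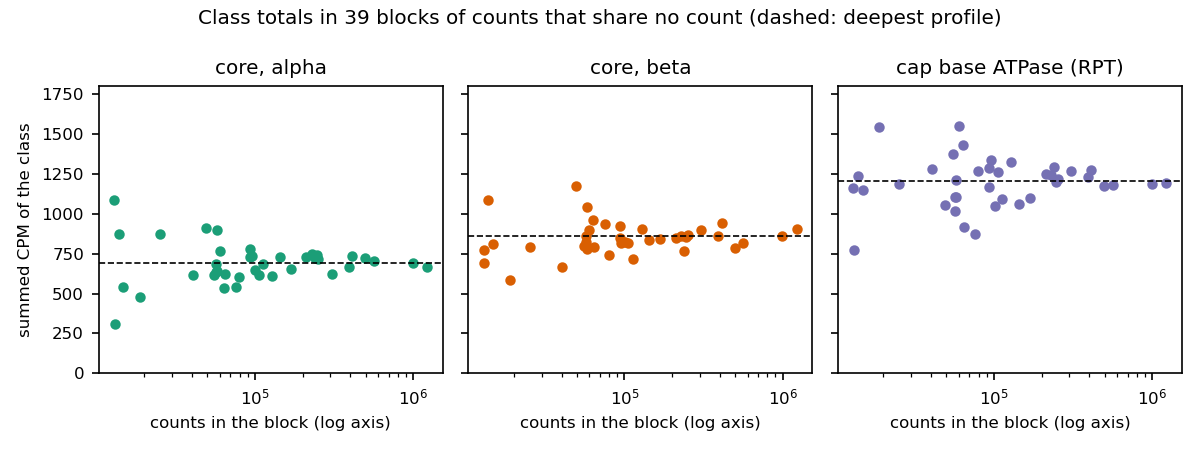
Summed CPM of the α, β and RPT genes (vertical axis, from 0) in each of the 39 blocks of counts that share no count, against the number of counts in the block on a log axis; the dashed line is the value of the deepest profile. In the largest blocks the points lie close to 691.8, 858.5 and 1202 CPM, the values of the deepest profile. The blocks add up to that profile, so this closeness is not an independent check of its values.

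Among the α genes, PAG1 (AT2G27020), the only gene of α7, lay highest at 113.8 CPM (interval 106.3 to 121.8). PAF1 (AT5G42790), an α6 gene, followed at 109.9 CPM (102.5 to 117.7), and these intervals overlap. Over the blocks PAG1 ran from 0 to 232.2 CPM with a median of 117.1, and PAF1 from 0 to 309.6 with a median of 98.6. No other α gene reached 100 CPM. The middle of the class held PAA1 (AT5G35590, α1) at 68.6 CPM, PAB1 (AT1G16470, α2) at 63.1 CPM, PAD2 (AT5G66140, α4) at 60.6 CPM and PAC1 (AT3G22110, α3) at 50.2 CPM. α3, whose amino terminus is central to the closed gate in yeast, has a further gene, AT4G15165, which was listed at 0 in every profile. The lowest 6 genes lay close together, from PAE2 (AT3G14290, α5) at 40.9 CPM through PAE1 (AT1G53850, α5), PAF2 (AT1G47250, α6), PAD1 (AT3G51260, α4) and AT1G79210 (α2) to PAA2 (AT2G05840, α1) at 33.2 CPM, and each of these overlapped its neighbours within the intervals. The value of PAF2 is uncertain, because its last 500 transcript bases are all shared with the overlapping locus AT1G47260 (114.9 CPM) and the use of strand in counting is not stated.

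Among the β genes, PBC2 (AT1G77440), which encodes the non-catalytic β3, lay highest at 191.2 CPM (interval 181.4 to 201.4), and per kilobase it led all 35 genes at 310.9. It had counts in all 39 blocks, from 99.8 to 316.6 CPM with a median of 188.1. PBE1 (AT1G13060), a gene of the chymotrypsin-like β5, followed at 140.9 CPM (132.5 to 149.7). Over the blocks it ran from 0 to 217.8 CPM, with a median of 144.1. The genes of the other catalytic subunits lay lower. PBA1 (AT4G31300), the only gene of the caspase-like β1, was at 79.4 CPM. Those of the trypsin-like β2 were PBB1 (AT3G27430) at 83.6 CPM and PBB2 (AT5G40580) at 53.0 CPM. A run of glycine and a pair of threonines, with the catalytic threonine after the glycine, was searched for in the first 110 residues. It was found there in the translated proteins of just these 5 genes of β1, β2 and β5. PBG1 (AT1G56450, β7) at 84.5 CPM, PBC1 (AT1G21720, β3) at 80.5 CPM and PBF1 (AT3G60820, β6) at 73.2 CPM had intervals that overlapped that of PBA1. PBD2 (AT4G14800, β4) at 40.4 CPM, PBD1 (AT3G22630, β4) at 21.7 CPM and AT3G26340 (β5) at 10.2 CPM closed the class, and their intervals overlapped neither each other nor the rest. PBF1 and PBB2 share 23.0% and 16.0% of the sequence of their last 500 bases with another locus.

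Among the RPT genes, RPT1A (AT1G53750) at 241.8 CPM (interval 230.8 to 253.2) and RPT3 (AT5G58290) at 226.2 CPM (215.5 to 237.3) lay highest of all 35 genes in CPM, and their intervals overlap. RPT3 had counts in every block, from 79.2 to 425.6 CPM with a median of 224.5. RPT1A was at 0 in 1 block, and otherwise ran up to 393.3 CPM with a median of 241.7. RPT1A shares 61.7% of the sequence of its last 500 bases with the locus AT1G53730, which was at 25.6 CPM. The genes of RPT6 came next, RPT6A (AT5G19990) at 162.0 CPM and AT5G20000 at 160.0 CPM, and RPT5A (AT3G05530) was at 130.4 CPM. These 5 genes were at 100 CPM or more. AT1G45000 (RPT4) at 80.3 CPM, RPT2a (AT4G29040) at 71.2 CPM, RPT4A (AT5G43010) at 55.4 CPM, RPT2b (AT2G20140) at 39.6 CPM and RPT5B (AT1G09100) at 35.4 CPM were lower. The intervals of RPT2b and RPT5B overlap. All 10 translated RPT proteins, of 399 to 443 residues, held a match to the Walker A pattern, the nucleotide-binding loop. The pattern also matched PBG1, a β subunit, so a match is not particular to the RPT proteins. A tyrosine next to the last residue, part of the tail by which RPT proteins dock into the α ring in yeast and archaea, stood in 6 of them, those of RPT1, RPT2, RPT3 and RPT5.

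Of the cap subunits without ATPase activity, RPN1A (AT2G20580), a scaffold for ubiquitin shuttles, was at 159.9 CPM (interval 150.9 to 169.2). RPN10 (AT4G38630), a receptor of ubiquitin chains, was at 87.1 CPM (80.5 to 94.0). In the blocks RPN1A ran from 0 to 387.0 CPM with a median of 155.1, and RPN10 from 0 to 271.0 with a median of 86.8. The coefficient of variation of their sum was 0.385, beside 0.272 from counting alone. RPN1A has the longest coding sequence of the 35 genes (2676 bases), and per kilobase it lay at 59.7 and RPN10 at 75.0.

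Among the 35 genes, 13 subunits had a pair of genes. Identical residues made up 91.2% to 99.1% within pairs and at most 48.5% between genes of different subunits. Pairs with a gene outside the 35 were left out. These were RPT1A (241.8 CPM) with AT1G53780 (9.82 CPM), PAC1 (50.2 CPM) with AT4G15165 (listed at 0) and RPN1A (159.9 CPM) with RPN1B (125.8 CPM). In 11 of the 13 pairs the interval of the ratio excluded an equal split, and the median ratio was 1.83. The widest of the 13 was that of β5: PBE1 had 1047 counts and AT3G26340 had 76, a ratio of 13.8 (interval 10.9 to 17.6). PBE1 was higher in 38 of the 39 blocks and equal in 1. In the profile of median depth these genes had 293 and 24 counts, and in the counts added after it 754 and 52. Per kilobase the ratio was 12.6. PBE1 held 93.2% of the counts of β5, and the translated proteins are 92.3% identical.

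RPT5A over RPT5B, genes known to act redundantly in gametophytes, gave a ratio of 3.68 (3.21 to 4.24), with RPT5A higher in 36 blocks and lower in 3. PAF1 over PAF2 gave 2.84 (2.48 to 3.26), PBC2 over PBC1 2.38 (2.16 to 2.62) and PAA1 over PAA2 2.06 (1.77 to 2.41). The higher gene led in 35, 37 and 31 blocks, in that order. The ratio of PAF1 over PAF2 is uncertain beyond its interval, because the last 500 bases of PAF2 are all shared with AT1G47260 (114.9 CPM). PBD2 over PBD1, PAB1 over AT1G79210 and RPT2a over RPT2b lay between 1.80 and 1.86. PAD2 over PAD1 (1.60), PBB1 over PBB2 (1.58) and AT1G45000 over RPT4A (1.45) were the narrowest of the 11. Over the 13 pairs the rank correlation of the ratio with sequence identity was -0.593, a description over pairs read from the same counts.

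In the other 2 of the 13 pairs the genes were close to equal. PAE2 had 304 counts and PAE1 had 299, a ratio of 1.02 (0.864 to 1.20). RPT6A had 1204 counts and AT5G20000 had 1189, a ratio of 1.01 (0.934 to 1.10). In the profile of median depth the order was the opposite, with 343 counts for RPT6A and 345 for AT5G20000. RPT6A was higher in 17 blocks, lower in 18 and equal in 4, so the pair did not hold the same counts throughout. The genes of RPT6 lie beside each other on chromosome 5, and over their last 500 bases RPT6A shares 0.213% and AT5G20000 6.17% of its sequence with other loci. Over the whole transcript RPT6A shares 16.9% with AT5G20000, and AT5G20000 shares 17.4% with RPT6A. How reads of several locations were counted is not stated, and an effect on this ratio was not tested. These intervals do not show equality, and they leave room for a ratio of up to 1.10 in RPT6 and 1.20 in α5.

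**Figure D3:**
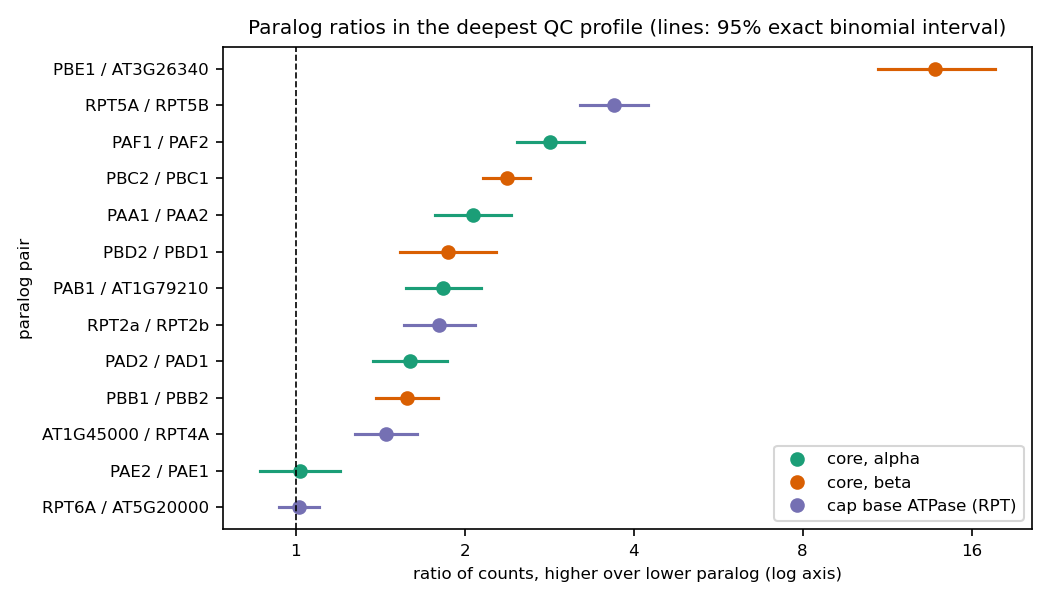
Ratio of counts, higher over lower gene, in the 13 paralog pairs among the 35 genes, in the deepest profile (log axis). Lines show the exact binomial interval, and a dashed line marks an equal split. The β5 pair stands at 13.8, the next at 3.68, and the lines of the α5 and RPT6 pairs cross the dashed line.

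Summed over paralogs among the 35 genes, the 22 subunits ran from 50.2 CPM for α3 to 322.0 CPM for RPT6. RPN1 stands here for RPN1A alone (159.9 CPM), without RPN1B (125.8 CPM, 47.0 CPM per kilobase). RPT1 leaves out AT1G53780 (9.82 CPM), and α3 leaves out AT4G15165 (listed at 0). The α subunits spanned 50.2 to 148.7 CPM (2.96-fold), the β subunits 62.0 to 271.7 CPM (4.38-fold) and the RPT subunits 110.7 to 322.0 CPM (2.91-fold). RPT6 (interval 309.2 to 335.2) and β3 (259.9 to 283.8) stood apart from each other and from the rest of these sums, which leave out RPN1B. RPT1 and RPT3 overlapped, and so did each subunit with the next from RPT5 at 165.8 CPM through RPN1, β5, α6 and β2 to RPT4 at 135.8 CPM. α7 at 113.8 CPM stood below RPT4. Each neighbour overlapped from there down to β4 at 62.0 CPM, and α3 lay below β4. The catalytic subunits summed to 151.1 CPM for β5, 136.6 CPM for β2 and 79.4 CPM for β1. Per kilobase of coding length β3 led at 441.8, followed by RPT6 at 255.6, RPT1 at 188.8 and RPT3 at 184.4. RPN1 (59.7, from RPN1A alone) and α3 (66.7) were lowest. RPT2 was the lowest RPT subunit on both scales, at 110.7 CPM and 83.1 CPM per kilobase.

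**Figure D4:**
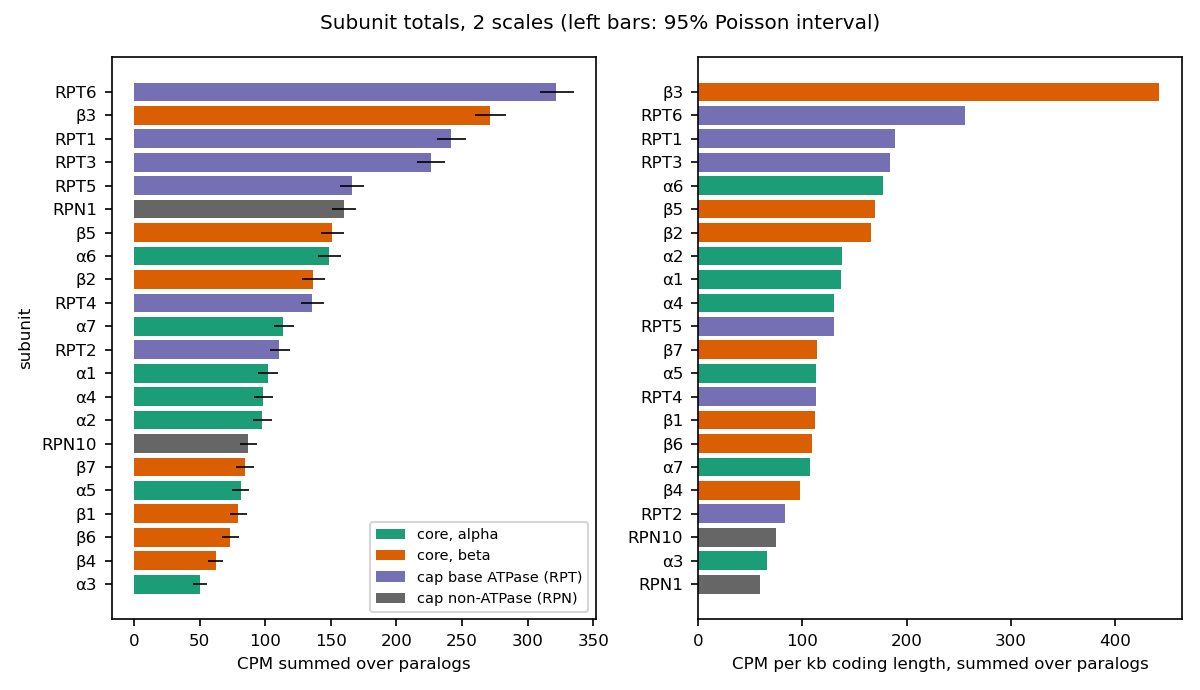
Level of each subunit in the deepest profile, summed over its genes among the 35. CPM with Poisson intervals are on the left and CPM per kilobase of coding length on the right, both axes from 0. RPT6 leads at 322.0 on the left and β3 at 441.8 on the right, while α3 is lowest on the left and RPN1A alone stands for RPN1, lowest on the right.

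The other genes of the pathway were read from the same profile. All 17 other RPN genes were detected, against 51.3% of all loci, and 8 of them were at 100 CPM or more, against 5.41%. Their median was 84.9 CPM. AT5G23540, which encodes RPN11, the deubiquitinase of the cap, was highest at 226.1 CPM, and RPN12b lowest at 4.17 CPM. RPN1B, the paralog of RPN1A, was at 125.8 CPM. Of a pair of further copies of core and ATPase genes, AT1G53780 (RPT1) was at 9.82 CPM, against 241.8 CPM for RPT1A, and AT4G15165 (α3) was listed at 0. Of 6 genes for an alternative cap, assembly and regulation, NAC2, also known as ANAC078 and among the factors that bind TGGGC, was highest at 294.6 CPM, above every one of the 35 genes. NAC053 was at 65.3 CPM, and PA200, an alternative cap, at 68.8 CPM. The maturation factors AT1G67250 and AT5G38650 were at 81.3 and 68.9 CPM.

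Upstream of the proteasome, CDC48, the segregase that extracts substrates, was at 474.3 CPM and led 7 shuttle and segregase genes with a median of 45.6 CPM. The 7 ubiquitin and E1 genes had a median of 1106 CPM, with UBQ10 highest at 5133 CPM. The ubiquitin genes among them were at 521.3 CPM (UBQ4) or more. The E1 genes UBA1 and UBA2 were at 156.4 and 26.0 CPM, within the range of the 35 proteasome genes. As gene groups for comparison, the COP9 signalosome, a complex related to the cap, had a median of 18.8 CPM over 10 genes, with COP8 highest at 482.4 CPM. The CCT chaperonin had a median of 36.9 CPM over 9 genes, with AT3G11830 highest at 99.7 CPM. Per kilobase of coding length the medians were 17.9 for the COP9 signalosome and 22.3 for CCT, beside 75.0 for the 35 proteasome genes and 10.8 for all detected loci. No test was made between these lists, since they come from 1 sample.

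**Figure D5:**
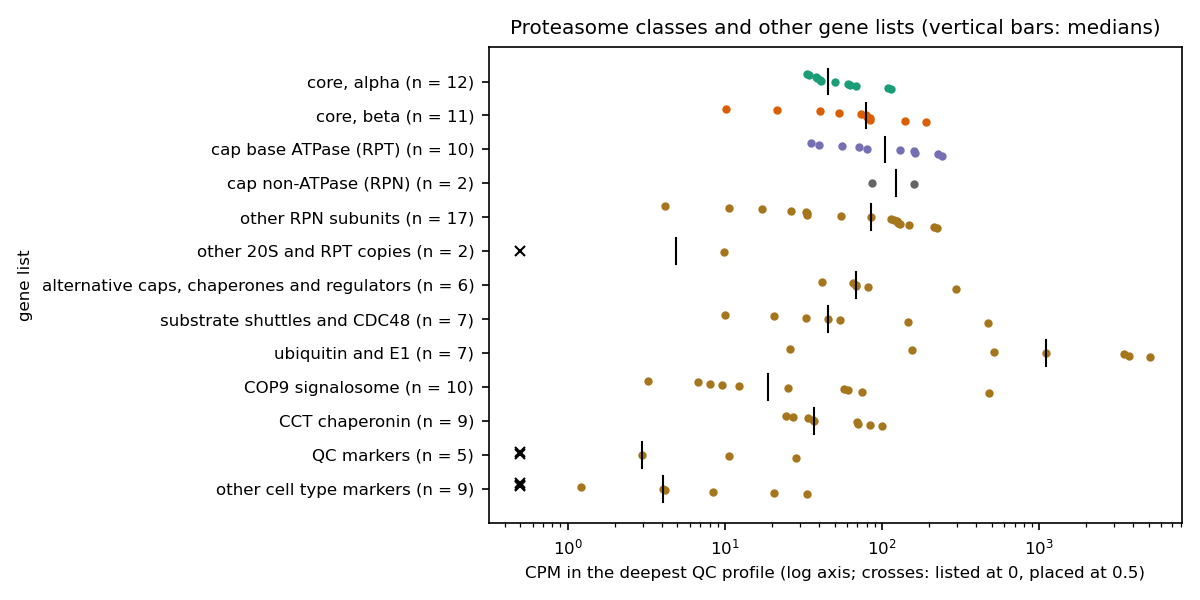
CPM in the deepest profile (log axis) of each gene of the proteasome classes and of the other gene lists, with a vertical bar at each list's median and crosses for genes listed at 0, placed at 0.5. The proteasome classes have medians of 45.5 to 123.5 CPM, between the medians of the ubiquitin and E1 genes (1106 CPM) and the COP9 signalosome (18.8 CPM). The E1 genes of that list lie at 156.4 and 26.0 CPM.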

How the data were processed

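CEL-Seq profiles of sorted WOX5:GFP cells of 5-day roots were analysed. The authors deposited log2 values of depth-scaled counts plus 1. The submitters' processing notes name Bowtie2 and TAIR10, and the study's methods, for its hand-picked cells, give counting over exons with ngsutils, partial counts for reads of several locations and removal of genes with little coverage. Whether the CEL-Seq libraries were counted and filtered in this way is not given in the sources used here. The table had 32771 rows, of which 91 were ERCC spike-ins (4.97% of the counts of the deepest profile) and a pair were reporters, all left out. Taken off the log scale and less 1, the low values of a profile were whole multiples of a common unit (to within 3.40e-06 of it), so counts were recovered, and the smallest count above 0 was 2. No molecular identifiers are stated. Scripts were tested on simulated data.

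CPM were scaled over 32678 loci. Intervals were exact Poisson for a level and exact binomial (Clopper-Pearson) for a ratio, at the 95% level, with Python 3.11.15, scipy 1.17.1, numpy 2.4.6, pandas 2.3.3 and Biopython 1.88. Shared sequence was the share of a gene's 31-base words found at another locus, on either strand. Coding length was that of the longest annotated protein, RefSeq TAIR10.1. The members and gene lists were chosen with earlier results of these data known. All members were named, and of other lists the highest gene, genes listed at 0 and some chosen after their values were seen. The alternatives were a limit of 10 CPM, thinning to 10000 counts, scaling without ribosomal RNA loci, scaling by coding length, pseudocounts of 1 and 10 CPM, and the profile of median depth and the counts added after it.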

Additional observations from a re-analysis of the deposited data

How the results depend on the processing

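No alternative turned the direction of the 11 ratios whose interval excluded an equal split. A pseudocount cannot turn a direction, and coding lengths within pairs were equal or close. The profile of median depth and the counts added after it are parts of the same sample. Of the other 2 ratios, that of RPT6A over AT5G20000 (0.018 on the log2 scale) was -0.0084 in the profile of median depth. The ratio of PAE2 over PAE1 (0.024) was 0 in the counts added later. All 35 genes were detected at a limit of 10 CPM and in the profile of median depth, and 26 in every profile at that limit. In the shallowest profile, any count above 0 passes that limit, so it could not change the calls there. Thinned to 10000 counts, 0 genes were found in every profile. Without ribosomal RNA loci, which held 13.9% of the counts, the medians moved to 82.7 CPM for all 35 genes, 52.9 for α, 92.2 for β and 122.3 for RPT genes, and the sum to 3483 CPM, as every value rises by the same factor. Per kilobase of coding length the medians were 62.0 for α, 108.9 for β and 84.6 for RPT genes. In the profile of median depth the sum was 3065 CPM. Of 65 alternative values of the 13 ratios, 60 lay within the main interval. A pseudocount of 10 CPM moved 3 ratios down, on the log2 scale to 2.90 for PBE1 over AT3G26340, and the profile of median depth moved those of the α6 and β2 pairs, to 1.27 and 0.93. No paired analysis was possible because there was 1 group. A replicate could not be left out, since the profiles are nested. Depth limits the values of single blocks, the smallest of which held 12920 counts. The cause of a 0 in the shallowest profiles was not tested.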
